A study of Homo sapiens with 9 samples.

Results

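The genes described here are those encoded by the mitochondrial genome. They were chosen by name, as every row of the count files whose gene symbol begins with MT-, and they number 37 of 60683 genes: 13 mRNAs, 2 rRNAs and 22 tRNAs. Human mitochondria keep a small circular genome that is transcribed from both strands as long precursors, and most of its mRNAs and rRNAs are flanked by tRNA genes whose excision frees them. The mRNAs encode core subunits of respiratory complexes I, III and IV and of ATP synthase, and the rRNAs and tRNAs serve the mitochondrion's own ribosomes. All other subunits, the polymerase, the processing enzymes and the ribosomal proteins are encoded in the nucleus.

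The libraries came from cells labelled HCT-15, a colorectal adenocarcinoma line of unmodified genotype grown in RPMI1640 with serum, and fall into 3 groups of 3: untreated, oxaliplatin and sorafenib. Oxaliplatin forms platinum adducts on DNA. Sorafenib blocks RAF and a range of receptor tyrosine kinases. Per the labels, the oxaliplatin cells received 0.5 µM for 7 days, then 1, 2 and 4 µM between day 10 and day 30, and were afterwards held at 4 µM. The sorafenib cells were selected in a like manner, with doses not given, so each drug group is a long-term selected population and not an acute treatment. The titles carry the same number code in all groups, and nothing in the labels says that the replicates were separate cultures, so p-values measure only how these libraries scatter, and that scatter may be technical. The series title names inositol hexaphosphate, but no library used here is labelled with it.

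Total counts ran from 15797076 to 20936536 per library, and after the filter on low counts 16159 genes were tested, all 37 mitochondrial genes among them. The cells' label was checked against marker genes: all 12 colorectal epithelial markers had a median under 1 CPM (CPM express a gene's counts relative to the library's total, scaled between libraries by TMM factors), and 7 of them, CDH1, CDX1, CDX2, KRT20, CEACAM5, HNF4A and PHGR1, had no count in any library. Of 9 renal epithelial markers, 4 had a median of at least 10 CPM and 1, EMX2, had no count in any library. The middle of the 9 medians was 5.86 CPM. The summed level of the 9 was 404.9 to 546.4 CPM in untreated, 674.7 to 686.1 CPM in oxaliplatin and 614.5 to 672.7 CPM in sorafenib libraries. Of 7 immune markers 6 had a median under 1 CPM, PTPRC and CD3E with no count, and 1 had at least 10 CPM. Their summed level was 25.5 to 48.0 CPM in untreated, 20.4 to 57.8 CPM in oxaliplatin and 17.8 to 50.3 CPM in sorafenib libraries. Of 7 fibroblast and endothelial markers 5 had a median under 1 CPM, COL3A1, VWF and CDH5 with no count, and 1 had at least 10 CPM. These summed to 11.4 to 48.9 CPM, 16.6 to 24.7 CPM and 4.07 to 4.94 CPM in the same order, lowest in sorafenib, and the part of either list in the results was not tested. The levels of the colorectal markers go against the label, and the groups are called here by their treatments.

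A few sequences help in reading the counts. Human mitochondrial genes are packed end to end, and some overlap. MT-ND4L, a complex I subunit gene and the mRNA gene that differed most from untreated cells, lies at chromosome MT, 10470 to 10766 (GRCh38, + strand), and its last 7 bases, in capitals, are also the first bases of MT-ND4. MT-ATP8, an ATP synthase subunit gene at 8366 to 8572, shares 46 bases with MT-ATP6. How reads in shared bases were assigned is not given in the sources used here.
MT-ND4L: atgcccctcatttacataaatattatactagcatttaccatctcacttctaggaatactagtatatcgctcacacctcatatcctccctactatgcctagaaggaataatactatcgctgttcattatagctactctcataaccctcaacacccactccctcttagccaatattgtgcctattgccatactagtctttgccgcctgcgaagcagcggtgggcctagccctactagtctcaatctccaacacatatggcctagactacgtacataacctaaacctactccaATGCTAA
MT-ATP8: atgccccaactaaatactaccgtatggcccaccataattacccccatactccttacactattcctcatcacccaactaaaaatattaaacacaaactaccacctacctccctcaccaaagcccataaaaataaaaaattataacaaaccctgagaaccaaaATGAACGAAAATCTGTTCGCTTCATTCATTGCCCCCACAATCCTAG

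The tRNA genes are 59 to 75 bases long, whereas the labels describe RNA sheared to 200 bases, so a fragment of that size that meets a tRNA gene extends into its neighbours. The tRNA genes on which the results turn are given below 5′ to 3′ with the anticodon in capitals. The first 7 passed the test in at least 1 comparison.
MT-TR: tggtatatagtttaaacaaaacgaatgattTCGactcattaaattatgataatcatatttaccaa
MT-TL1: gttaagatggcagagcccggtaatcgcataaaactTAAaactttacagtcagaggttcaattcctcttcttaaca
MT-TD: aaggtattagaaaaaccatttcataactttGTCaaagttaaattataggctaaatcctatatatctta
MT-TM: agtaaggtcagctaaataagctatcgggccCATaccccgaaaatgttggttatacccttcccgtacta
MT-TW: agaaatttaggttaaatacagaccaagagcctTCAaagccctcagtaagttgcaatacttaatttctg
MT-TG: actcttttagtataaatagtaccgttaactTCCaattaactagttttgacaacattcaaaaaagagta
MT-TE: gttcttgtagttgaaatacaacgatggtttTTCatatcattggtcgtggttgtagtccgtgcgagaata

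The next 4 lie side by side on the – strand, between 5587 and 5891, and set oxaliplatin library 3 apart.
MT-TA: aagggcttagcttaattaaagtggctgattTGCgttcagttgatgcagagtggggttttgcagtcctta
MT-TN: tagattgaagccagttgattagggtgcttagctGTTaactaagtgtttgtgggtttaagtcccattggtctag
MT-TC: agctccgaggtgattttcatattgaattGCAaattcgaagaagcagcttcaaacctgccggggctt
MT-TY: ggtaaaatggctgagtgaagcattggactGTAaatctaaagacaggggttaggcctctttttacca

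The nuclear genome also holds old copies of mitochondrial DNA. Bases 121 to 200 of MT-ATP6 and of its copy MTATP6P1 (chromosome 1, 633696 to 634376) show how close such copies can be, with the 4 bases that differ in capitals.
MT-ATP6: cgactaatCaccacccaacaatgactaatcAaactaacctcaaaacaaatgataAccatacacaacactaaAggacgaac
MTATP6P1: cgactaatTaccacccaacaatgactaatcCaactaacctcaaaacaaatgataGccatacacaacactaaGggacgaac

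The 13 mRNAs together made up 7.92, 6.64 and 7.55% of all counts in untreated libraries 1 to 3, 9.94, 8.85 and 7.74% in oxaliplatin libraries and 8.12, 8.35 and 9.17% in sorafenib libraries. Every sorafenib library lay above every untreated one, whereas oxaliplatin library 3 lay within the untreated range. The 2 rRNAs held 1.80% ± 0.0995 in untreated, 1.75% ± 0.0712 in oxaliplatin and 1.80% ± 0.0756 in sorafenib libraries (SD, n = 3 each). The 22 tRNAs held 0.103% ± 0.0128, 0.104% ± 0.0190 and 0.104% ± 0.00694, and for both classes the groups overlapped. There were 24.0, 25.6 and 23.7 rRNA counts per 100 mRNA counts in untreated libraries, 18.3, 19.6 and 21.8 in oxaliplatin and 22.9, 20.6 and 20.0 in sorafenib libraries, so that each drug group lay wholly below the untreated libraries. In bulk RNA, a change in the number of cells that carry a transcript and a change in its amount per cell cannot be told apart.

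Per kilobase of gene, the mRNAs of complex IV, cytochrome c oxidase, stood highest in untreated cells. MT-CO3 was at 20633 ± 342.9 CPM per kb, MT-CO2 at 16867 ± 459.7 CPM per kb and MT-CO1, which encodes the catalytic subunit, at 11498 ± 1435 CPM per kb, with no overlap between the 3. Next came MT-ATP8, MT-ND1, MT-ND4 and MT-ND2, from 6102 down to 5248.5 CPM per kb, and each of these overlapped the next in its libraries. MT-ND3, MT-ND4L, MT-CYB (the only complex III gene of this genome) and MT-ATP6 followed, from 3812 to 2887 CPM per kb, again each overlapping the next. MT-ND6, at 1517 ± 116.0 CPM per kb, and MT-ND5, at 1069 ± 190.4 CPM per kb, were lowest and did not overlap. MT-ND6 is the sole mRNA read from the light strand, and its mRNA is known to lack the poly(A) tail that the other 12 carry.

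**Figure D1:**
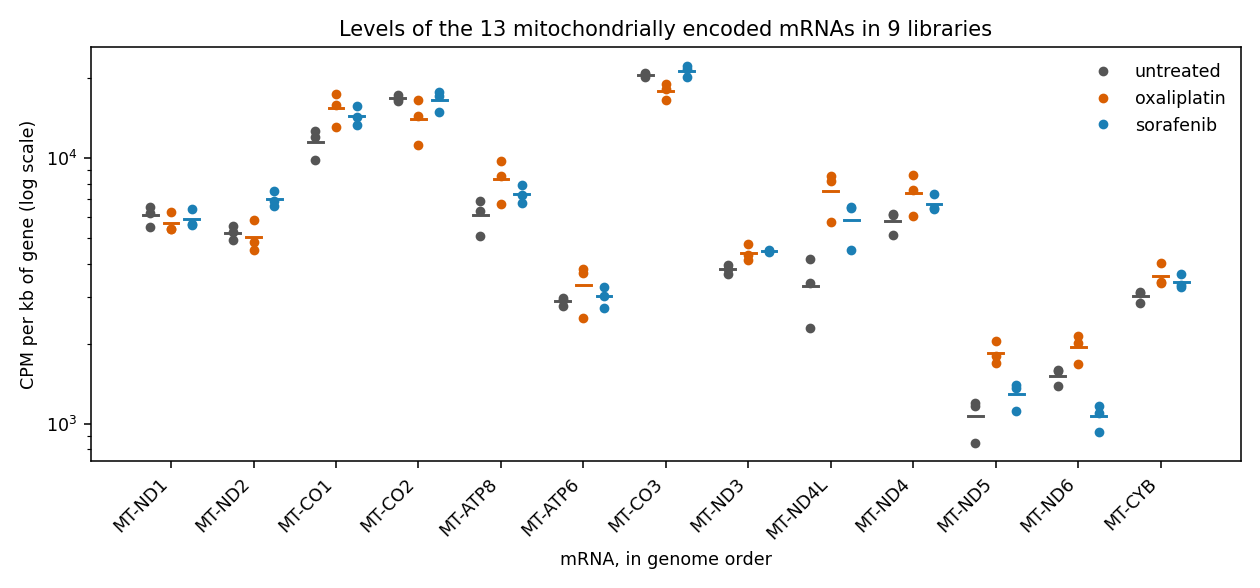
Level of each of the 13 mRNAs in CPM per kb of gene (log axis), in genome order; each point is 1 library and each bar the mean of the 3 libraries of a group. MT-ND4L and MT-ND5 are higher in all oxaliplatin than in all untreated libraries, and MT-ND6 is lowest in the sorafenib libraries.

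The order differed between the groups at a few places. MT-ND4L held rank 9 in untreated and rank 5 in oxaliplatin cells, where it averaged 7502 ± 1506 CPM per kb against 3292 ± 952.3 CPM per kb. MT-ND2 held rank 7 in untreated and rank 5 in sorafenib cells, at 7015 ± 484.9 CPM per kb, and MT-ND6 was last there, at 1065 ± 122.3 CPM per kb. The spread between libraries differed between groups: the median coefficient of variation of the 13 mRNAs was 7.65% in untreated, 13.7% in oxaliplatin and 7.91% in sorafenib libraries.

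In oxaliplatin against untreated cells, 3 of the 13 mRNAs rose and none fell at an adjusted p under 0.05 (edgeR's quasi-likelihood test, Benjamini-Hochberg over all genes), while 31.7% of all genes were called, 16.2% higher and 15.5% lower. The 3 were MT-ND4L, MT-ND5 and MT-CO1, and both of the first encode membrane subunits of complex I, NADH dehydrogenase. The median log2 fold change of the 13 was 0.26, beside 0.016 for all genes tested. At an unadjusted p under 0.05 there were 7 mRNAs, a threshold at which all genes were not counted.

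MT-ND4L stood at 1244.5, 681.2 and 1008 CPM in untreated libraries 1 to 3, at 2536, 2434 and 1715 CPM in oxaliplatin and at 1343, 1925 and 1949 CPM in sorafenib libraries. All oxaliplatin and all sorafenib libraries lay above all untreated ones, with untreated library 2 the lowest. The oxaliplatin difference was 1.19 ± 0.24 on the log2 scale (2.28-fold, adjusted p = 0.00754), and it was called in all 19 alternative settings, with adjusted p between 5.17e-05 and 0.0313. Its neighbour MT-ND4, read from the same bicistronic mRNA, differed by 0.36 ± 0.15 (adjusted p = 0.0887). The ratio of MT-ND4L to MT-ND4 per kb was 0.680, 0.447 and 0.555 in untreated, 0.988, 1.08 and 0.955 in oxaliplatin and 0.704, 1.00 and 0.899 in sorafenib libraries. The ratio was higher in every drug library than in every untreated one.

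MT-ND5, another proton-pumping complex I subunit, stood at 2165, 1540 and 2106 CPM in untreated, 3715, 3253 and 3062.5 CPM in oxaliplatin and 2027, 2472 and 2530.0 CPM in sorafenib libraries. The oxaliplatin libraries lay above all others, and the sorafenib libraries overlapped the untreated ones. The difference between oxaliplatin and untreated was 0.79 ± 0.16 (1.73-fold, adjusted p = 0.00604), again called in all 19 alternatives, with adjusted p between 9.96e-05 and 0.0282.

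MT-CO1 stood at 19476, 15242 and 18471 CPM in untreated, 26948, 24419 and 20166 CPM in oxaliplatin and 20543, 22128 and 24236 CPM in sorafenib libraries. Both drug groups lay above the untreated libraries, but the gap between oxaliplatin library 3 and untreated library 1 was small. The oxaliplatin difference of 0.43 ± 0.14 (1.34-fold, adjusted p = 0.0467) was called in 8 of 19 alternatives, with adjusted p between 0.0205 and 0.166. The call ended without oxaliplatin library 1 (adjusted p = 0.166) or 2 (0.118), without untreated library 2 (0.155) or 3 (0.0919) and without sorafenib library 1 (0.0524), 2 (0.0686) or 3 (0.0643).

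**Figure D2:**
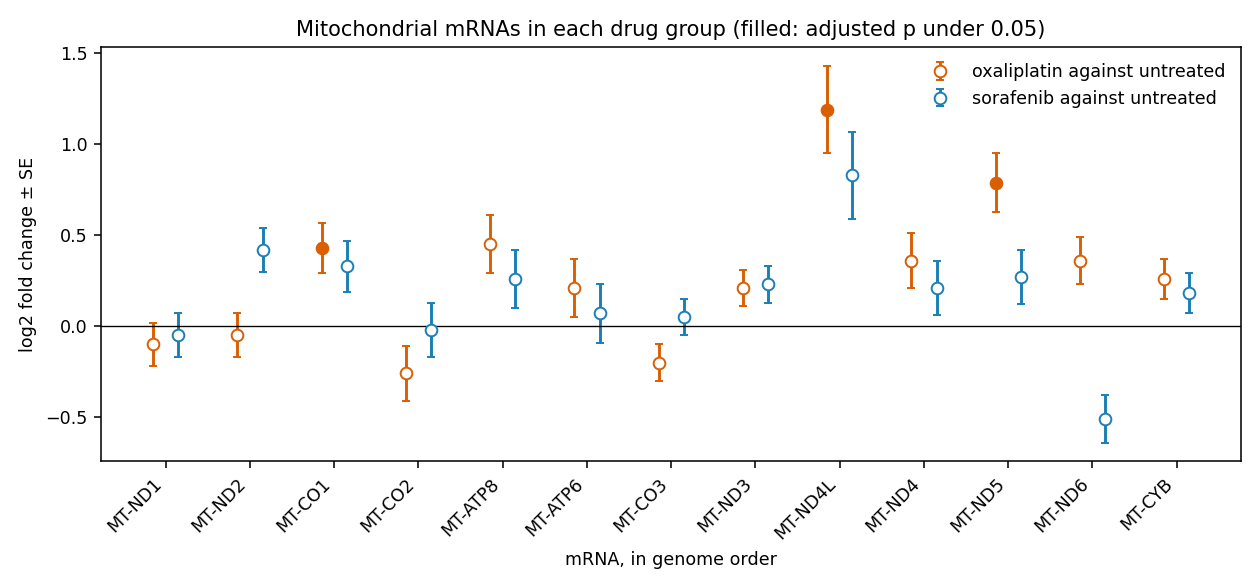
Log2 fold change of each mRNA against untreated cells, with its standard error, for oxaliplatin (orange) and sorafenib (blue); filled points had an adjusted p under 0.05. Filled are MT-CO1, MT-ND4L and MT-ND5 in oxaliplatin, and MT-ND6 is the mRNA whose points lie on opposite sides of 0 and farthest apart.

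The other 10 mRNAs gave no call in oxaliplatin cells. MT-ATP8 differed by 0.45 ± 0.16 (adjusted p = 0.0542) and MT-ND6 by 0.36 ± 0.13 (adjusted p = 0.0591), and MT-CO3 lay lower in all oxaliplatin than in all untreated libraries (log2 fold change -0.20 ± 0.10, adjusted p = 0.153). In all, 6 mRNAs were higher and 1 was lower without overlap between the groups, while 48.1% of all genes tested had groups that did not overlap, 24.9% higher and 23.2% lower. The number of calls depended on oxaliplatin library 3: without it 7 mRNAs were called, all higher, instead of 3. Of all genes, 2535 were called higher and 2536 lower without that library, against 2619 and 2504 with it.

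In sorafenib against untreated cells no mRNA was called, while 4.8% of all genes were, 2.82% higher and 1.97% lower. At an unadjusted p under 0.05 there were 5 mRNAs, a threshold at which all genes were not counted. DESeq2 called 3 mRNAs, of which 2 were higher and 1 lower. It called 992 of all genes higher and 804 lower, against 456 and 319 in the main fit. The median log2 fold change was 0.21, with 10 of 13 above 0, beside 0.00 for all genes. Nearest to the threshold were MT-ND6 at -0.51 ± 0.13 (adjusted p = 0.0527), MT-ND2 at 0.42 ± 0.12 (adjusted p = 0.0752) and MT-ND4L at 0.83 ± 0.24 (adjusted p = 0.0764). Here 7 mRNAs had groups that did not overlap, 6 higher and 1 lower, beside 29.8% of all genes, 15.5% higher and 14.3% lower. Leaving out sorafenib library 1 gave 2 calls, and leaving out untreated library 1 or oxaliplatin library 3 gave 1 each. Of all genes, 1066 were higher and 677 lower, 935 and 706, and 434 and 325 in the same order. Both drug groups were compared with the same untreated libraries, so that their similar values for MT-ND4L are not independent of each other.

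Between the drug groups 10.3% of all genes were called, 5.2% higher and 5.07% lower in oxaliplatin, and of the mRNAs MT-ND6 was higher and MT-ND2 lower. MT-ND6 had the larger difference. It stood at 828.6, 726.2 and 834.4 CPM in untreated, 1126, 1053 and 882.6 CPM in oxaliplatin and 613.1, 488.2 and 576.7 CPM in sorafenib libraries. The 3 groups did not overlap, with sorafenib lowest and oxaliplatin highest. Oxaliplatin exceeded sorafenib by 0.87 ± 0.13 on the log2 scale (1.82-fold, adjusted p = 0.0042), a call that held in all 19 alternatives with adjusted p between 6.21e-07 and 0.0228. Set against the 12 heavy-strand mRNAs, MT-ND6 gave 1.05, 1.04 and 1.06 counts per 100 in untreated libraries, 1.19, 1.26 and 1.20 in oxaliplatin and 0.740, 0.592 and 0.627 in sorafenib libraries. That ratio does not depend on how libraries are scaled, and it also separated the 3 groups. The strand setting of the counting is not given, and without it reads of MT-ND6 and of the – strand tRNA genes cannot be told apart from reads of the opposite strand's precursor over the same bases.

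MT-ND2 stood at 5508, 5126 and 5773 CPM in untreated, 6098, 5024 and 4720.2 CPM in oxaliplatin and 7206, 6865 and 7859 CPM in sorafenib libraries. All sorafenib libraries lay above all others, and oxaliplatin and untreated libraries overlapped. Oxaliplatin was lower than sorafenib by a log2 fold change of -0.47 ± 0.12 (adjusted p = 0.04), called in 8 of 19 alternatives with adjusted p between 0.0076 and 0.138. The call ended without oxaliplatin library 2 (adjusted p = 0.138) or 3 (0.0861), without sorafenib library 1 (0.086), 2 (0.0671) or 3 (0.125) and without untreated library 3 (0.0582). It also ended when the counts of nuclear copies were added to the gene (log2 fold change -0.41, adjusted p = 0.0766). Between the drugs 4 of the 13 mRNAs had groups that did not overlap, 2 higher and 2 lower in oxaliplatin, beside 34.9% of all genes, 17.3% higher and 17.6% lower.

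The make-up of the mitochondrial mRNA pool was also compared as the share of each mRNA in the counts of the 13, which sum to 100 and so are not independent. In oxaliplatin 11 of the 13 shares did not overlap with untreated, and in sorafenib 8. Shares within this pool have no count over all genes to stand beside. By CPM, 7 of the 13 mRNAs did not overlap in each comparison, beside 48.1% and 29.8% of all genes. MT-CO1 took 23.1% ± 1.42 of the pool in untreated, 28.1% ± 0.932 in oxaliplatin and 25.8% in sorafenib libraries, while MT-CO2 went from 15.1% ± 1.08 to 11.3% ± 0.845 and 13.2%, and MT-CO3 from 21.2% ± 1.13 to 16.7% ± 2.14 and 19.4%. These 3 encode the core subunits of 1 complex, yet their shares moved apart: MT-CO1 per kb was 0.767, 0.589 and 0.690 of MT-CO2 in untreated libraries, 1.06, 1.10 and 1.17 in oxaliplatin and 0.775, 0.960 and 0.887 in sorafenib libraries. Some sorafenib shares came close to untreated. The lowest sorafenib share was 24.6% for MT-CO1 and 1.61% for MT-ND4L, against highest untreated shares of 24.5% and 1.56%. The highest sorafenib share was 14.1% for MT-CO2 and 20.3% for MT-CO3, against lowest untreated shares of 14.1% and 20.5%. MT-ND1 took less of the pool under both drugs, with 7.61% ± 0.231 in untreated, 6.45% ± 0.425 in oxaliplatin and 6.53% in sorafenib libraries. MT-ND2 took 7.16% ± 0.209, 6.23% ± 0.238 and 8.47%, so that it lay below untreated in oxaliplatin and above it in sorafenib. The share of MT-ND3 overlapped between all groups, at 1.73%, 1.81% and 1.80%.

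**Figure D3:**
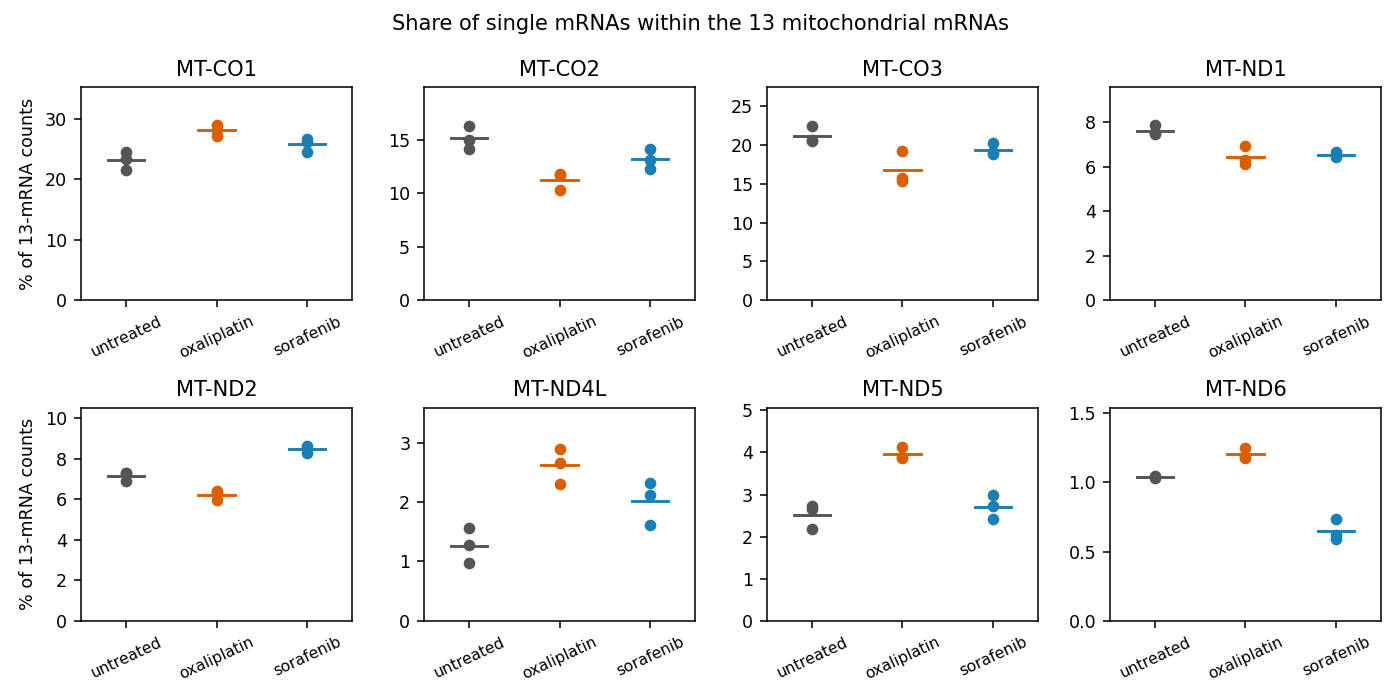
Share of 8 mRNAs in the summed counts of the 13 mitochondrial mRNAs, in percent (each panel from 0, with its own scale); points are libraries and bars are group means. MT-CO1 and MT-ND4L take a larger and MT-CO2, MT-CO3 and MT-ND1 a smaller share in both drug groups, and MT-ND6 separates the 3 groups. For MT-CO1, MT-CO2, MT-CO3 and MT-ND4L the nearest sorafenib and untreated libraries almost touch.

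Grouped by complex, the 7 complex I mRNAs held 2.35% ± 0.264 of all counts in untreated, 3.04% ± 0.403 in oxaliplatin and 2.81% ± 0.211 in sorafenib libraries, and MT-CYB held 0.332% ± 0.0248, 0.430% ± 0.0426 and 0.387% ± 0.0243. For these the drug libraries all lay above the untreated ones. The 3 complex IV mRNAs held 4.38% ± 0.338, 4.96% ± 0.577 and 4.99% ± 0.290, with an overlap between oxaliplatin and untreated. The 2 ATP synthase mRNAs held 0.311% ± 0.0317, 0.418% ± 0.0846 and 0.354% ± 0.0263, with overlaps in both comparisons.

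Neither rRNA was called in any comparison. The larger, MT-RNR2, averaged 11148 ± 343.9 CPM per kb in untreated cells and MT-RNR1 1317 ± 36.2 CPM per kb, in libraries made from mRNA. MT-RNR1 stood at 1235.0, 1239 and 1297 CPM in untreated, 1089.5, 948.9 and 1103 CPM in oxaliplatin and 1144.5, 1072 and 1142 CPM in sorafenib libraries. Both drug groups lay below the untreated libraries, with log2 fold changes of -0.26 ± 0.10 (adjusted p = 0.0641) for oxaliplatin and -0.17 ± 0.10 (adjusted p = 0.313) for sorafenib. For oxaliplatin DESeq2 gave an adjusted p of 0.0269, and over the 19 alternatives the log2 fold change ran from -0.40 to -0.15. MT-RNR2 differed by -0.15 ± 0.10 in oxaliplatin (adjusted p = 0.281) and -0.02 ± 0.10 in sorafenib (adjusted p = 0.917).

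Counts at the tRNA genes were low and uneven. Per kilobase MT-TC, MT-TN, MT-TL1, MT-TY and MT-TA led in untreated cells, from 3445 to 1233 CPM per kb, and MT-TQ and MT-TK were lowest, at 34.0 and 23.5 CPM per kb, MT-TK with 24 to 70 counts per library. The 4 genes of the – strand run between MT-TW and MT-CO1 gave 62.9, 62.8 and 53.9% of all tRNA counts in untreated libraries. In oxaliplatin cells 2 of the 22 tRNA genes rose and 4 fell, beside 16.2% of all genes higher and 15.5% lower, and the median log2 fold change was -0.44. Groups did not overlap for 10 of them, 4 higher and 6 lower, beside 48.1% of all genes. Neither count stood far from that of all genes. MT-TI was not called but lay below untreated without overlap under both drugs. Its log2 fold change was -0.51 ± 0.18 in oxaliplatin (adjusted p = 0.051, called in 6 of 19 alternatives). In sorafenib it was -0.62 ± 0.18 (adjusted p = 0.0686, called in 3). MT-TS1 lay below untreated without overlap in oxaliplatin (-0.81 ± 0.32, adjusted p = 0.08, called in 4). MT-TF, MT-TV, MT-TT and MT-TP gave no call in the main fit.

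The largest rise was at MT-TR, the tRNA for arginine, which lies without a gap between MT-ND3 and MT-ND4L. It stood at 71.7, 36.2 and 60.1 CPM in untreated, 184.8, 202.0 and 107.4 CPM in oxaliplatin and 80.4, 120 and 115 CPM in sorafenib libraries. Every drug library lay above every untreated one. The oxaliplatin difference of 1.56 ± 0.31 (2.94-fold, adjusted p = 0.00759) was called in all 19 alternatives, with adjusted p between 5.93e-06 and 0.0307, whereas the sorafenib difference of 0.91 ± 0.31 was not called (adjusted p = 0.111). The difference between the drugs, 0.65 ± 0.30, was not called either (adjusted p = 0.203). MT-TR and the adjoining MT-ND4L thus had the 2 highest log2 fold changes of the 37 genes under each drug.

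MT-TL1, the leucine tRNA between MT-RNR2 and MT-ND1, stood at 147.2, 119.8 and 154.9 CPM in untreated and at 209.7, 194.3 and 189.1 CPM in oxaliplatin libraries, which did not overlap. The difference was 0.49 ± 0.12 (adjusted p = 0.0161), called in 16 of 19 alternatives with adjusted p between 0.00548 and 0.0747. Its call ended without oxaliplatin library 1 (adjusted p = 0.0639) or untreated library 2 (0.0645), and when libraries were scaled to the summed mitochondrial mRNAs (0.0747). In sorafenib MT-TL1 differed by 0.22 ± 0.12 (adjusted p = 0.293).

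The strongest fall was at MT-TD, the aspartate tRNA just before MT-CO2. It stood at 43.2, 35.8 and 51.7 CPM in untreated, 24.3, 19.8 and 19.5 CPM in oxaliplatin and 41.5, 25.8 and 43.0 CPM in sorafenib libraries. The oxaliplatin libraries lay below all others. Against untreated the log2 fold change was -1.04 ± 0.21 (adjusted p = 0.00677), called in all 19 alternatives with adjusted p between 0.0001 and 0.0298. Against sorafenib it was -0.79 ± 0.21 (adjusted p = 0.0414), called in 11 of 19 with adjusted p between 0.00864 and 0.132, and lost without oxaliplatin library 1 (0.0778), 2 (0.132) or 3 (0.0928), without sorafenib library 1 (0.127) or 3 (0.123) and without untreated library 1 (0.0544).

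MT-TM and MT-TW, the methionine and tryptophan tRNAs, flank MT-ND2 on either side. MT-TM stood at 10.9, 8.51 and 11.5 CPM in untreated, 5.91, 3.58 and 7.96 CPM in oxaliplatin and 11.9, 14.7 and 15.1 CPM in sorafenib libraries. The 3 groups did not overlap, with oxaliplatin lowest and sorafenib highest, the same order as the MT-ND2 means. MT-TM fell in oxaliplatin against untreated by a log2 fold change of -0.83 ± 0.26 (adjusted p = 0.0382), called in 11 of 19 alternatives with adjusted p between 0.0116 and 0.107. It was lower than in sorafenib by -1.26 ± 0.26 (adjusted p = 0.0179), called in 16 of 19 with adjusted p between 0.000184 and 0.0664. The first call ended without oxaliplatin library 1 (0.0949) or 2 (0.0889), untreated library 1 (0.0731) or 3 (0.107) or sorafenib library 2 (0.053) or 3 (0.0526), and the second without oxaliplatin library 1 (0.0664) or sorafenib library 2 (0.0504) or 3 (0.0577).

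MT-TW stood at 7.16, 6.63 and 9.18 CPM in untreated, 5.41, 5.53 and 4.50 CPM in oxaliplatin and 7.77, 8.17 and 9.32 CPM in sorafenib libraries, so that the oxaliplatin libraries lay below all others. The log2 fold change was -0.57 ± 0.18 against untreated (adjusted p = 0.038) and -0.71 ± 0.18 against sorafenib (adjusted p = 0.0365), each called in 9 of 19 alternatives. Adjusted p ran from 0.0219 to 0.137 in the first and from 0.012 to 0.116 in the second. The first call ended without any 1 of the oxaliplatin libraries (0.0841, 0.07 and 0.0954 without 1, 2 and 3), without untreated library 3 (0.137) and without sorafenib library 2 (0.0541) or 3 (0.0515). The second ended without any 1 oxaliplatin library (0.0985, 0.0841 and 0.0791) or any 1 sorafenib library (0.0665, 0.0748 and 0.116).

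MT-TG, the glycine tRNA between MT-CO3 and MT-ND3, stood at 5.22, 5.47 and 6.47 CPM in untreated, 3.58, 2.28 and 4.38 CPM in oxaliplatin and 3.80, 4.71 and 4.98 CPM in sorafenib libraries. Both drug groups lay below the untreated one. The oxaliplatin log2 fold change of -0.75 ± 0.25 (adjusted p = 0.0435) was called in 8 of 19 alternatives, with adjusted p between 0.0227 and 0.126. Its call ended without oxaliplatin library 1 (0.0961) or 2 (0.118), untreated library 1 (0.0506), 2 (0.0882) or 3 (0.126) or sorafenib library 2 (0.0595) or 3 (0.0586).

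**Figure D4:**
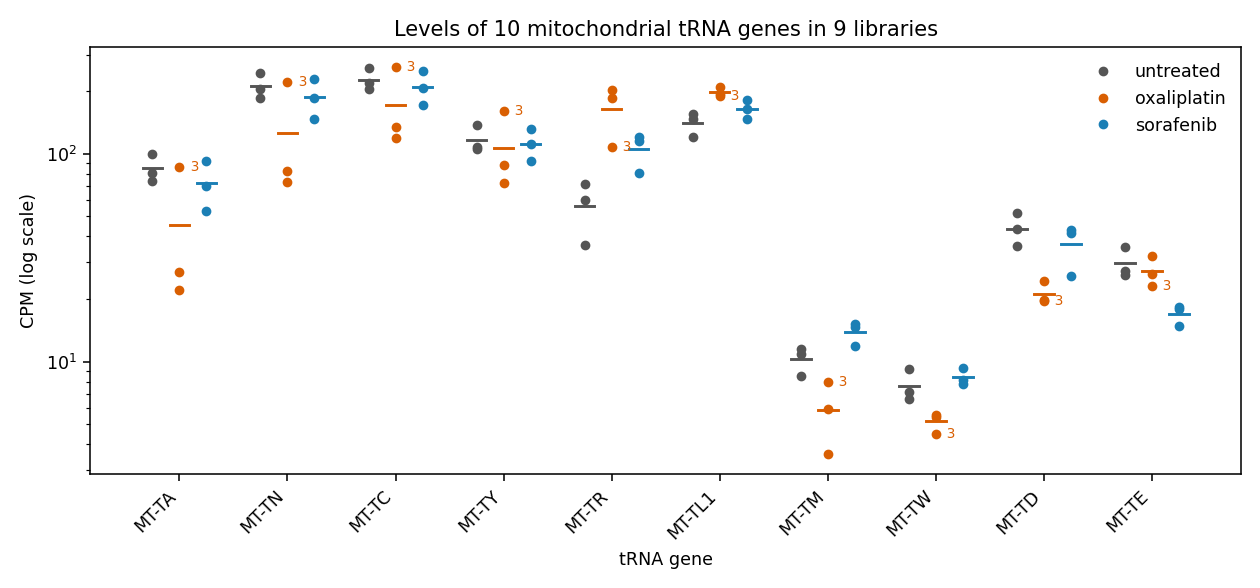
Level of 10 tRNA genes in CPM (log axis); each point is 1 library, each bar a group mean, and oxaliplatin library 3 is numbered. At MT-TA, MT-TN, MT-TC and MT-TY oxaliplatin library 3 lies well above the other oxaliplatin libraries.

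Oxaliplatin library 3 stood apart at the 4 – strand tRNA genes between MT-TW and MT-CO1, the tRNAs for alanine, asparagine, cysteine and tyrosine. Their summed level was 741.9, 613.0 and 568.5 CPM in untreated, 332.1, 286.3 and 729.5 CPM in oxaliplatin and 702.1, 573.1 and 464.2 CPM in sorafenib libraries. Oxaliplatin libraries 1 and 2 were thus below, and library 3 close to, the highest untreated library. MT-TA, for example, stood at 99.97, 81.1 and 74.1 CPM in untreated and at 27.0, 22.1 and 86.3 CPM in oxaliplatin libraries. With all libraries its log2 fold change was -0.92 ± 0.49 (adjusted p = 0.188). Without oxaliplatin library 3 it was -1.78 (adjusted p = 0.00318), and MT-TN gave -1.44 (adjusted p = 0.00327) and MT-TC -0.83 (adjusted p = 0.0101), while over the 19 alternatives the log2 fold change of MT-TA ran from -1.78 to -0.59. Library 3 was also the highest oxaliplatin library at MT-TS2 and MT-TL2 on the + strand. MT-TS2 stood at 7.33, 6.69 and 9.18 CPM in untreated and 4.125, 2.39 and 7.96 CPM in oxaliplatin libraries. MT-TL2 stood at 7.33, 6.14 and 8.59 CPM and at 3.99, 2.22 and 8.09 CPM. Without library 3 both gave -1.23 (adjusted p = 0.011 and 0.0134) and MT-TH gave -0.65 (adjusted p = 0.0423). MT-TY was called in none of the 19 alternatives. Without library 3, 12 tRNA genes were called in oxaliplatin, 3 higher and 9 lower, instead of 6. Of all genes, 2535 were then called higher and 2536 lower, against 2619 and 2504 with it. The other 18 tRNA genes summed to 596.2, 571.0 and 477.5 CPM in oxaliplatin libraries and 437.1, 362.8 and 486.7 CPM in untreated ones.

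In sorafenib cells 1 of the 22 tRNA genes fell and none rose, near the 4.8% of all genes that were called, and the median log2 fold change was -0.15. It was MT-TE, the glutamate tRNA that adjoins MT-ND6 on the – strand. MT-TE stood at 26.1, 27.1 and 35.7 CPM in untreated, 32.3, 26.4 and 23.1 CPM in oxaliplatin and 18.3, 14.8 and 17.8 CPM in sorafenib libraries. The sorafenib libraries lay below all others, as they did at MT-ND6. Against untreated the log2 fold change was -0.80 ± 0.17 (adjusted p = 0.0343), called in 12 of 19 alternatives with adjusted p between 0.00182 and 0.141. Oxaliplatin exceeded sorafenib by 0.69 ± 0.17 (adjusted p = 0.0351), called in 13 of 19 with adjusted p between 0.00859 and 0.135. The first call ended without sorafenib library 2 (0.141) or 3 (0.111), untreated library 2 (0.0858) or 3 (0.114) or oxaliplatin library 2 (0.0577), and the second without any 1 sorafenib library (0.0728, 0.106 and 0.081) or oxaliplatin library 1 (0.135) or 2 (0.0869).

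Between the drugs, then, 1 tRNA gene was higher and 3 were lower in oxaliplatin, namely MT-TE against MT-TM, MT-TW and MT-TD, beside 5.2% of all genes higher and 5.07% lower. The libraries also differed in nuclear RNA without a poly(A) tail. Summed over 84 such genes, of histones and a few small noncoding RNAs, the share of all counts was 0.0106, 0.00877 and 0.00762% in untreated, 0.0136, 0.0148 and 0.0201% in oxaliplatin and 0.0115, 0.0124 and 0.00956% in sorafenib libraries. The oxaliplatin libraries lay above all others, and the part of this in the MT-ND6, rRNA and tRNA results was not tested.

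**Figure D5:**
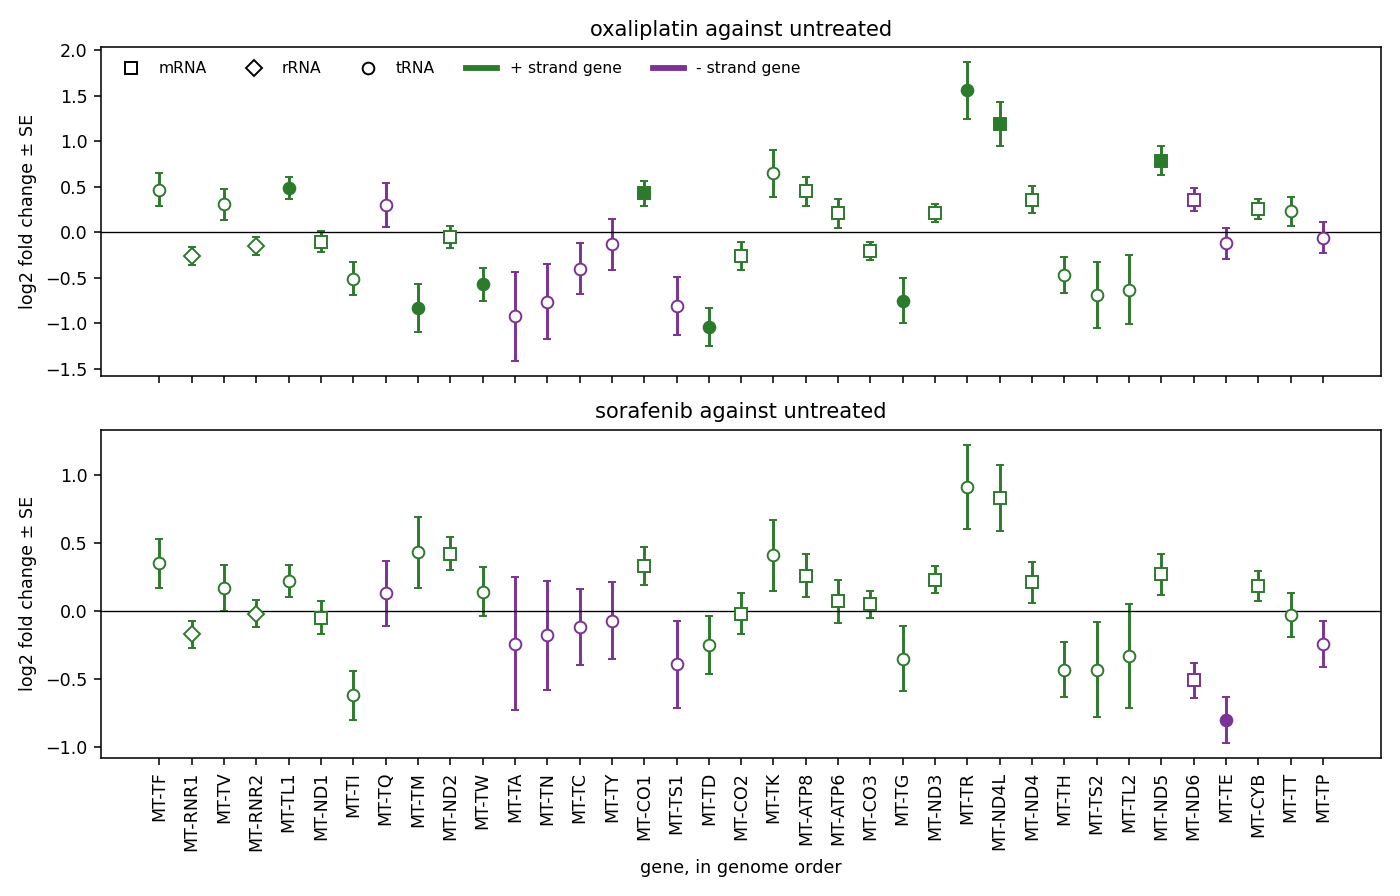
Log2 fold change against untreated cells with its standard error for all 37 genes in genome order; squares are mRNAs, diamonds rRNAs and circles tRNAs, green on the + and purple on the – strand, and filled where the adjusted p was under 0.05. Under both drugs the adjoining MT-TR and MT-ND4L are highest, and the adjoining MT-ND6 and MT-TE both lie below 0 in sorafenib.

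Counts at nuclear copies bear on some of these levels. The files list 408 copies, 74 had at least 1 count and 13 were tested, and the 5 with the most counts held 98.7% of them. MTATP6P1, with 98.5% identity to MT-ATP6, took 38.6 to 42.0% of the pair's counts in untreated, 38.4 to 40.9% in oxaliplatin and 39.1 to 40.6% in sorafenib libraries. MT-ATP6 and its copies together reached 4838.5 ± 289.5 CPM per kb in untreated libraries against 2887 ± 108.6 for MT-ATP6 alone, so the level of this gene is uncertain. MTND2P28, with 98.4% identity to MT-ND2, took 13.4 to 16.0% of its pair in untreated, 19.4 to 23.3% in oxaliplatin and 16.2 to 19.4% in sorafenib libraries. For MTCO1P12, MTND4P12 and MTND5P11 the copy took at most 2.62%, 1.55% and 0.74% of the pair. Called higher in oxaliplatin than in untreated were MTND2P28 (0.63 ± 0.18, adjusted p = 0.0282), MTND4P12 (1.16 ± 0.38, 0.0486) and MTND5P11 (1.11 ± 0.21, 0.00533). MTATP6P1 and MTCO1P12 were not called there. In sorafenib only MTND2P28 was called (0.78 ± 0.19, adjusted p = 0.0431). MT-ND2 itself was not called against untreated under either drug.

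The nuclear partners of these genes moved differently in oxaliplatin cells. Of 35 tested nuclear subunits of complex I, 25 fell and none rose (median log2 fold change -0.80). The same count was 8 of 9 for complex III (-0.62), 11 of 11 for complex IV (-0.79) and 14 of 15 for ATP synthase (-0.62), beside 15.5% of all genes that were lower. For example, NDUFA9 of complex I averaged 102.1 ± 6.93 CPM in oxaliplatin against 179.4 ± 19.4 CPM in untreated libraries (log2 fold change -0.81 ± 0.11, adjusted p = 0.00175). COX7B of complex IV averaged 73.5 ± 10.3 against 146.1 ± 14.4 CPM (-0.99 ± 0.14, adjusted p = 0.00175), and ATP5ME of ATP synthase 22.9 ± 4.16 against 51.1 ± 7.33 CPM (-1.16 ± 0.16, adjusted p = 0.00177). Of the 4 subunits of complex II, which has no mitochondrially encoded subunit, SDHB fell (-0.55 ± 0.13, adjusted p = 0.0105). No member of these lists rose in oxaliplatin under any of the 19 alternatives. The count that fell in complex III dropped to 3 without oxaliplatin library 1 and to 5 without oxaliplatin library 2 or untreated library 2 or 3. All genes called lower dropped as well, from 2504 to 1387 without oxaliplatin library 1 and 1574 without oxaliplatin library 2. They numbered 1453 without untreated library 2 and 1616 without untreated library 3.

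In sorafenib cells 1 nuclear subunit of complex I (NDUFB1, -0.59 ± 0.13, adjusted p = 0.033) and 1 of ATP synthase (ATP5PF, -0.56 ± 0.11, adjusted p = 0.0283) fell, none of complex III or IV was called, beside 1.97% of all genes that were lower, and the medians were -0.35, -0.34, -0.40 and -0.40 in that order. DESeq2 called 7 and 5 lower in the first pair of lists and 2 and 3 in the second. It called 804 of all genes lower, against 319 in the main fit. The counts of the lists changed with single libraries, and so did the count of all genes. All genes called lower numbered 677 without sorafenib library 1 and 706 without untreated library 1. They numbered 57 and 55 without untreated library 2 or 3, and 46 and 37 without sorafenib library 2 or 3. Without sorafenib library 1, 9, 7, 5 and 5 subunits of these lists were lower, in the same order. Without untreated library 1 the complex I count was 6, the ATP synthase count 3 and the complex III count 2. In both lists with a call it was 0 without untreated library 2 or 3, sorafenib library 2 or 3 or oxaliplatin library 1, and in complex I also without oxaliplatin library 2. The ATP synthase count was 2 without oxaliplatin library 3.

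Of 22 genes of mitochondrial transcription and genome maintenance, 1 rose and 3 fell in oxaliplatin, a smaller share than the 31.7% of all genes called, with a median of -0.07 that was 0.04 with total counts only. Without oxaliplatin library 1 only 1 of them fell. RRM2B, a ribonucleotide reductase subunit that supplies nucleotides outside S phase, rose to 90.8 ± 11.7 from 45 ± 6.26 CPM (1.01 ± 0.14, adjusted p = 0.00196), and in sorafenib to 76.7 ± 7.86 CPM (0.77 ± 0.14, adjusted p = 0.0222). No gene of the list was called in sorafenib without untreated library 2 or 3 or sorafenib library 2 or 3. SSBP1, the single-strand DNA binding protein of mitochondria (-0.67 ± 0.15, adjusted p = 0.00948), TOP1MT, a mitochondrial topoisomerase (-0.61 ± 0.16, adjusted p = 0.0204), and TEFM, the elongation factor (-0.53 ± 0.15, adjusted p = 0.0253), fell in oxaliplatin. The polymerase POLRMT (-0.26 ± 0.13, adjusted p = 0.136) and its partners TFAM (-0.19 ± 0.12, adjusted p = 0.26) and TFB2M (-0.11 ± 0.11, adjusted p = 0.485) were not called, nor were the replication genes POLG (0.10 ± 0.11, adjusted p = 0.509) and TWNK (0.42 ± 0.50, adjusted p = 0.553).

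Among 43 genes of mitochondrial RNA processing, modification and stability, 2 rose and 14 fell in oxaliplatin (median -0.28), beside 16.2% of all genes higher and 15.5% lower. In sorafenib 1 fell (median -0.15), beside 2.82% of all genes higher and 1.97% lower. Without oxaliplatin library 1 the oxaliplatin counts were 1 and 9, and without untreated library 2 or sorafenib library 2 or 3 none was called in sorafenib. SLIRP, which with LRPPRC stabilises mitochondrial mRNAs, averaged 19.1 ± 2.09 CPM in oxaliplatin against 34.9 ± 4.66 CPM in untreated libraries (-0.87 ± 0.20, adjusted p = 0.0116), while LRPPRC itself was not called (-0.08 ± 0.11, adjusted p = 0.616). SUPV3L1, the helicase of the mitochondrial RNA degradosome, fell (-0.43 ± 0.14, adjusted p = 0.0409). Its nuclease partner PNPT1 was not called against untreated (-0.31 ± 0.12, adjusted p = 0.0713), but was lower in oxaliplatin than in sorafenib (-0.44 ± 0.12, adjusted p = 0.0407). ERAL1, a chaperone of the small mitochondrial rRNA, fell in oxaliplatin (-0.82 ± 0.13, adjusted p = 0.00312) and in sorafenib (-0.80 ± 0.13, adjusted p = 0.0135). The 2 genes of the list that rose in oxaliplatin were ANGEL2 (0.53 ± 0.12, adjusted p = 0.00908) and TRNT1 (0.68 ± 0.21, adjusted p = 0.0338).

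Of 33 translation factors and aminoacyl-tRNA synthetases of mitochondria, 2 rose and 5 fell in oxaliplatin (median -0.12), fewer in share than the 31.7% of all genes called. TACO1, an activator of MT-CO1 translation, averaged 26.1 ± 4.40 CPM against 54.3 ± 2.85 CPM (-1.06 ± 0.15, adjusted p = 0.00186), in the cells in which MT-CO1 mRNA was higher. MARS2, which charges the methionine tRNA, rose in oxaliplatin (0.87 ± 0.12, adjusted p = 0.00196) and in sorafenib (0.59 ± 0.12, adjusted p = 0.0312), where no gene of the list was called without untreated library 2 or 3, sorafenib library 2 or 3 or oxaliplatin library 1. MTFMT, which formylates that tRNA, fell in oxaliplatin (-0.92 ± 0.17, adjusted p = 0.00509). RARS2, which charges the arginine tRNA, fell there as well (-0.51 ± 0.10, adjusted p = 0.00567). In sorafenib 1 gene of the 33 rose, MARS2, and 1 fell, FARS2 (-0.62 ± 0.14, adjusted p = 0.0426), beside 2.82% of all genes higher and 1.97% lower. Of 16 regulators of mitochondrial biogenesis and mitophagy 4 rose and 1 fell in oxaliplatin, close to the 31.7% of all genes called. Their median of 0.03 was -0.10 when libraries were scaled to the mitochondrial mRNAs. Without untreated library 2 or 3, or oxaliplatin library 1 or 2, between 2 and 3 of them were called. PPARGC1A, a coactivator that drives mitochondrial biogenesis, rose to 61.9 ± 5.43 from 30.3 ± 11 CPM (1.03 ± 0.23, adjusted p = 0.00955), and GABPA, a transcription factor of respiratory genes, rose by 0.53 ± 0.17 (adjusted p = 0.0356). MYC rose as well (0.64 ± 0.14, adjusted p = 0.00819), and FUNDC1 fell (-0.76 ± 0.24, adjusted p = 0.0382). In sorafenib 1 of the 16 rose, BNIP3L (0.39 ± 0.09, adjusted p = 0.0436), and none fell, beside 2.82% of all genes higher. With only the 2 groups compared, none was called in sorafenib.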

How the data were processed

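Messenger RNA libraries from 9 samples were sequenced, per the labels' protocols. The authors deposited whole-number counts per gene, made with featureCounts on GRCh38 per the submitters' processing notes, which also name DESeq2 and give no version of either. The aligner, annotation release, strand setting and treatment of reads with several alignments are not given in the sources used here.

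Counts were fitted over all genes in R 4.3.3 with edgeR 4.0.16 (filterByExpr, TMM factors, robust quasi-likelihood fit with 1 coefficient per group), with Benjamini-Hochberg adjustment across the 16159 genes tested. "Called", "rose" and "fell" mean an adjusted p under 0.05. Errors beside levels are standard deviations over 3 libraries and errors beside log2 fold changes are standard errors. Shares and ratios were computed from counts without a test. The depth of the libraries limits the precision of the lowest tRNA genes. The code was tested on simulated data. Alternatives were DESeq2 1.42.0, 4 other scalings, 2 other filters, fits of 2 groups, the replicate number as a block and leaving out each library. Adding nuclear copies to their gene was chosen after seeing the data.

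All 37 genes are accounted for. Of each pathway list up to 3 called members a direction with the smallest adjusted p were eligible to be named, besides 11 fixed genes. Members and lists were chosen with earlier results of these data known. Sequences and coordinates come from GENCODE release 29 (GRCh38), and all 37 loci have the same coordinates in the files.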

Additional observations from a re-analysis of the deposited data

How the results depend on the processing

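No called value changed sign in any of the 19 alternatives, and 5 calls held in all of them: MT-ND4L, MT-ND5, MT-TR and MT-TD in oxaliplatin against untreated, and MT-ND6 between the drugs. In oxaliplatin against untreated, 8 mRNAs were called with total counts only instead of 3, and 2 to 7 when 1 library was left out. For rRNAs and tRNAs together the count of 6 became 2 to 12 when 1 library was left out. It was 2 without oxaliplatin library 1, 3 without oxaliplatin library 2, untreated library 3 or sorafenib library 3, and 12 without oxaliplatin library 3. Of all genes, 2619 were called higher and 2504 lower in the main fit. These became 1526 and 1387, 1737 and 1574, 1677 and 1616, 2328 and 2264, and 2535 and 2536 in the same order of omissions. The split of the 6 rRNAs and tRNAs of the main fit, 2 higher and 4 lower, was 3 and 1 with total counts only. It was 1 and 5 when libraries were scaled to the summed mitochondrial mRNAs. With total counts only, the median of all genes shifted to 0.131 in this comparison, and with the mitochondrial mRNA scaling to -0.123 (-0.175 in sorafenib), so both splits are to be read against these shifts. In sorafenib against untreated, the 0 mRNAs became 3 with DESeq2, 1 with no filter, 1 with the mitochondrial mRNA scaling and 0 to 2 when 1 library was left out, and the 1 rRNA or tRNA became 3 with DESeq2, 0 with only the 2 groups compared and 0 to 2 when 1 library was left out. Between the drugs, the 2 mRNAs became 1 with nuclear copies added, 1 with the mitochondrial mRNA scaling and 1 to 3 when 1 library was left out, and the 4 rRNAs or tRNAs became 2 with total counts only and 0 to 5 when 1 library was left out. Calls over all genes changed too. In sorafenib against untreated, the 456 higher and 319 lower became 992 and 804 with DESeq2. They became 1066 and 677 without sorafenib library 1 and 76 and 37 without sorafenib library 3. Between the drugs, the 840 higher and 819 lower became 314 and 258 without oxaliplatin library 1. They became 987 and 962 without untreated library 1. The cause of these changes was not tested.

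The replicate numbers did not pair the samples: correlations of same-numbered libraries' deviations from their group means ran from -0.111 to 0.0359. With the replicate number as a block, oxaliplatin against untreated had 2 mRNAs and 4 tRNAs called, without MT-CO1 (adjusted p = 0.0891), MT-TW (0.0809) and MT-TG (0.0525). Sorafenib against untreated then had 0 rRNAs and tRNAs called, and between the drugs there were 1 mRNA and 2 tRNAs. Shares were recomputed only over another denominator, with nuclear copies added and without each library. Ratios of group mean shares of all counts moved by less than 1 SD, and counts of non-overlapping shares within the 13 mRNAs by at most 1.5 times.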
